A study of Mus musculus with 12 samples.

Results

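The constant gene of the T cell receptor (TCR) delta chain, Trdc, and 4 of its variable genes, Trdv1, Trdv2-2, Trdv4 and Trdv5, were followed through single-cell RNA sequencing of γδ T cells and early thymocytes. They are 5 of the 33696 genes in the files, were chosen by name, and were each described by their level, by the share of cells with a UMI (a unique molecular identifier, which stands for 1 captured RNA molecule) and by the gamma variable gene (Trgv) seen in the same cell. The study compared adult C57BL6/J mice deficient for the zinc finger repressor Gfi1 (KO) with wild type mice (WT). The 3 kinds of cells sorted were γδ T cells of the spleen, γδ T cells of the thymus and, jointly, thymocytes of the double negative stages DN1 to DN3 (the DN sort), after magnetic removal of B, myeloid and NK cells. Each kind was run as 2 pools, in each of which WT and KO cells carried different hashtag antibodies and shared a droplet run, which gives 2 libraries of each genotype for each kind of cell. The labels do not say whether the pools came from separate animals, so every p-value measures only the spread between these libraries.

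A γδ T cell receptor pairs a gamma chain with a delta chain, and each chain is joined from variable and joining segments (and, for delta, diversity segments) during thymic development. The delta genes lie inside the TCR alpha locus, so that joining a Trav segment to an alpha joining segment deletes them, and several Trav segments can also be joined to the delta constant gene. Trdv4 encodes the variable region called Vδ1 in an older mouse nomenclature. In fetal and perinatal life it is joined with little junctional diversity and pairs with Trgv6 or Trgv5 chains, and the Trgv6 Trdv4 receptor is carried by tissue γδ T cells that make IL-17. Trdv1, Trdv2-2 and Trdv5 are segments of the adult repertoire, of which Trdv5 lies on the far side of Trdc in inverted orientation.

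The 12 libraries held 96911 cells after filtering, with 42091895 to 71663962 UMIs per library and medians of 4947 to 6853 UMIs per cell. The hashtag of the label led in 99.6% to 100% of the cells of each library, and no cell barcode was shared between the libraries of a pool. Libraries labelled KO did not hold less Gfi1 RNA. It was measured at 11.8 and 18.0 CPM (the UMIs of the gene scaled to a library total of 1000000) in the spleen libraries labelled WT and at 18.1 and 18.1 CPM in those labelled KO, and at 16.5 and 17.6 against 28.9 and 19.2 CPM in thymic γδ T cells and 44.7 and 40.6 against 70.6 and 56.5 CPM in the DN sort. Which part of Gfi1 is deleted is not given in the sources used here, and reads from a 3′ end outside the deleted part check nothing, so the genotype is given below as labelled. Xist RNA was at 0 to 0.374 CPM in the 4 spleen libraries and at 739 to 1600 CPM in the 8 thymic libraries, and differences between spleen and thymus therefore cannot be told apart from differences between these mice. Because expression was summed over all cells of a library, more cells of a type and more RNA per cell cannot be told apart in any level given below.

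The ends of the 4 variable segments are shown because they carry the start of the complementarity determining region at the V-D-J junction, the part of the receptor that varies most. They are the last 120 bases of each coding segment, 5′ to 3′ on the sense strand, from the GENCODE M21 transcripts of build GRCm38, all on chromosome 14, and the capitals mark the codons of the conserved tyrosine, any residue and cysteine that close the V domain.
Trdv1: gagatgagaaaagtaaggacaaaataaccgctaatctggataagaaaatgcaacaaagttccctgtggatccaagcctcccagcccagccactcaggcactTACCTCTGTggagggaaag
Trdv2-2: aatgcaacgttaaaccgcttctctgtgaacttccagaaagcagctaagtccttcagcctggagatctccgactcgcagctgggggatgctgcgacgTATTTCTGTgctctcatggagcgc
Trdv4: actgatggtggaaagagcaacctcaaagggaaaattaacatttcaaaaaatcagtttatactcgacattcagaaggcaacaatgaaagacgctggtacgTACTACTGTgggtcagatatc
Trdv5: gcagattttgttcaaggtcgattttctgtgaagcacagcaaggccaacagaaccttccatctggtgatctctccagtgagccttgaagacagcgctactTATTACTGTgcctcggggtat
The V exons of these 4 genes shared 49.7% to 57.3% of aligned bases, so that a read from within a V exon can tell them apart. Trdv2-2 has a near copy, Trdv2-1, and both are shown over the same 120 bases with the bases that differ in capitals.
Trdv2-1: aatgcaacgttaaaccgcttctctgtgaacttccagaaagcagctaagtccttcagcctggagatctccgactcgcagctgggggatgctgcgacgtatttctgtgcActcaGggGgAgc
Trdv2-2: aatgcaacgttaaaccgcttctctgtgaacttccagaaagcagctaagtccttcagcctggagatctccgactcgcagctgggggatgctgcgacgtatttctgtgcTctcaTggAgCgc
The V exons of this pair differed at 7 of 299 bases and shared a run of 221 identical bases. Reads from that run cannot be assigned to either gene, and Trdv2-1 held 0 to 5 UMIs per library, so the level of Trdv2-2 is uncertain in this respect. In the same annotation 207 bases of Trdv5 exons lie opposite Trdc exons on the other strand, and the strand setting of the counting is not given in the sources used here. The 3′ chemistry reads from the poly(A) end, whereas a V segment lies at the other end of the transcript, and a Trdv UMI was seen in a minority of WT γδ T cells. The capture differs between segments by an unknown factor, so levels are compared between libraries for 1 gene at a time and not between genes.

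Trdc RNA was higher in γδ T cells labelled KO than in those labelled WT. In spleen Trdc was at 1359 and 1485 CPM in the libraries labelled WT and at 1817 and 2051 CPM in those labelled KO. Thymic γδ T cells held it at 1286 and 1233 CPM against 1919 and 2008 CPM. The libraries of the labelled genotypes did not overlap in either tissue, and the share of all genes without overlap was not counted. Of all tested genes 54.7% were called in spleen and 49.7% in thymic γδ T cells. Trdc rose by 0.54 on the log2 scale in spleen (SE 0.15, edgeR quasi-likelihood adjusted p = 0.013) and by 0.77 in the thymus (SE 0.15, adjusted p = 0.00216). The spleen call was lost on leaving out WT library 1 (adjusted p = 0.0913), WT library 2 (0.0571) or KO library 2 (0.0753). In the DN sort Trdc was at 192 and 199 CPM in the libraries labelled WT and at 126 and 163 CPM in those labelled KO. The DN difference of −0.43 (SE 0.15) did not pass the test (edgeR adjusted p = 0.07), but with the pool as a replicate block it did (−0.45, adjusted p = 0.0192).

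Ordered by group mean, Trdc was highest in thymic γδ T cells labelled KO at 1964 ± 62.9 CPM (SD, n = 2) and in splenic γδ T cells labelled KO at 1934 ± 166 CPM, which overlapped. Splenic WT cells followed at 1422 ± 89.1 CPM and thymic WT γδ T cells at 1260 ± 37.5 CPM, with no overlap between their libraries. The DN sort was lowest, at 195 ± 5.37 CPM in WT and 144 ± 26.4 CPM in KO. The share of cells with a Trdc UMI was already near its ceiling in the γδ sorts, at 92.3% and 95.2% in the spleen libraries labelled WT against 98.8% and 99.0% in those labelled KO. It was 95.4% and 96.4% against 96.1% and 96.6% in thymic γδ T cells. Among DN cells, 51.3% and 52.5% of WT cells and 31.2% and 41.9% of KO cells had a Trdc UMI. Thinned to 3000 UMIs per cell, with the 1213 to 1376 shallower cells of each DN library left out, the DN shares were 35.2% and 36.5% against 20.6% and 29.0%, in the same order. The DN difference of −15.3 percentage points had an exact permutation p of 0.333, the smallest that 2 libraries against 2 allow, and 0.375 after Benjamini-Hochberg adjustment over the 9 share tests made. Without KO library 1 the DN difference was −10.0 points. The spleen difference of 5.15 points gave the same exact permutation p, and the thymic one of 0.429 points gave an exact permutation p of 0.667. At matched depth, with cells thinned to 3000 UMIs, the thymic shares did not overlap, at 93.7% and 92.5% in WT against 96.9% and 97.9% in KO, which lie 4.30 points apart (exact permutation p = 0.333), where unthinned WT cells were deeper (medians of 6853 and 6850 against 5742 and 5665 UMIs). Over all libraries 26 cells met the B cell marker rule, of which 3 (11.5%, median depth 10440 UMIs) had a Trdc UMI, and none had a Trdv UMI, which allows a share of up to 11.5%. Of these cells 19 were in the DN libraries labelled KO, 1 in a thymic γδ library labelled KO and 0 in the splenic ones, so they set no limit for the libraries rich in Trdv4 RNA.

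Trdv4 was the only variable member with higher levels in γδ T cells labelled KO. In spleen it was at 38.1 and 36.1 CPM in the libraries labelled WT and at 526 and 520.3 CPM in those labelled KO. Thymic γδ T cells held it at 6.79 and 6.67 CPM against 413 and 456 CPM. DN cells held it at 0.0809 and 0.128 CPM against 0.793 and 0.498 CPM, which is 5 and 8 UMIs against 37 and 28. In each of the 3 sorts both libraries labelled KO lay above both labelled WT, and the share of all genes without overlap was not counted. Trdv4 rose by 3.92 on the log2 scale in spleen (SE 0.14, edgeR adjusted p = 3.42e-08), by 6.14 in the thymic γδ sort (SE 0.15, adjusted p = 1.31e-08) and by 2.57 in the DN sort (SE 0.31, adjusted p = 0.000364). The order of the group means ran from splenic KO cells at 523 ± 4.1 CPM (SD, n = 2) to thymic γδ KO cells at 434 ± 30.4, splenic WT cells at 37.1 ± 1.41, thymic γδ WT cells at 6.73 ± 0.0827, DN KO cells at 0.645 ± 0.209 and DN WT cells at 0.105 ± 0.0336. No neighbours in that order had overlapping libraries.

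**Figure D1:**
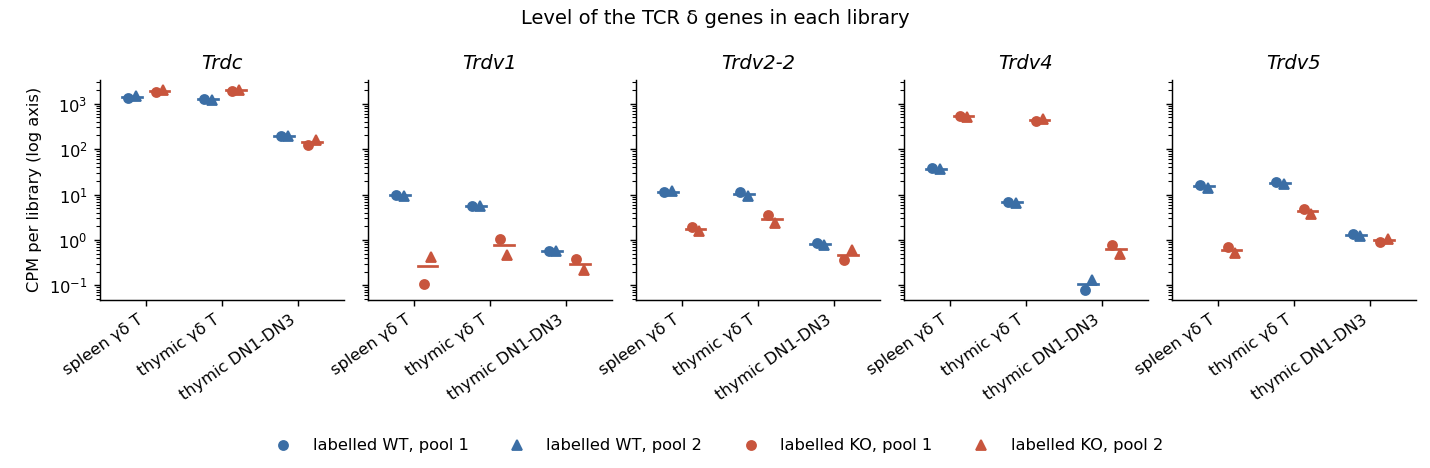
Level of each of the 5 delta genes in CPM (log axis) in each of the 12 libraries, by sort, with a circle for pool 1, a triangle for pool 2, blue for labelled WT, red for labelled KO and a line for the mean of 2 libraries. Trdv4 lies at 520.3 and 526 CPM in splenic KO and at 36.1 and 38.1 CPM in splenic WT libraries, while Trdv1, Trdv2-2 and Trdv5 lie lower in KO than in WT γδ T cells.

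Trdv4 was detected in more cells as well as at more UMIs per cell. In spleen 7.57% and 7.54% of cells labelled WT and 86.1% and 86.3% of cells labelled KO had a Trdv4 UMI. Of thymic γδ T cells, 3.67% and 4.04% of WT cells and 61.2% and 73.6% of KO cells had one. Thinned to 3000 UMIs per cell, with 351 to 1791 shallower cells left out of each γδ library, the spleen shares were 5.99% and 5.77% against 72.6% and 73.0% and the thymic shares 2.09% and 1.82% against 56.9% and 65.6%. The cells with Trdv4 also held more of it, with a mean of 2.71 and 2.55 UMIs in splenic WT against 3.66 and 3.59 in splenic KO cells, and 1.60 and 1.48 against 4.2 and 3.68 UMIs in thymic γδ T cells. As for the DN sort, a Trdv4 UMI was seen in 0.0694% and 0.107% of WT cells and 0.243% and 0.146% of KO cells. Since WT and KO cells of a pool shared a droplet run, RNA free in solution could reach either, and its part in the low WT shares was not tested.

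The 3 other variable genes had lower levels in γδ T cells labelled KO. Trdv1 was at 9.91 and 9.44 CPM in spleen WT and at 0.107 and 0.432 CPM in spleen KO, the latter resting on 5 and 30 UMIs. Trdv2-2 was at 11.5 and 11.7 CPM against 1.88 and 1.58 CPM. Trdv5 was at 16.2 and 13.9 CPM against 0.684 and 0.518 CPM. The labelled genotypes did not overlap for any of the 3, and the share of all genes without overlap was not counted. In spleen Trdv1 fell by 4.97 on the log2 scale (SE 0.46, edgeR adjusted p = 1.11e-05), Trdv5 fell by 4.57 (SE 0.21, adjusted p = 1.39e-07) and Trdv2-2 fell by 2.65 (SE 0.24, adjusted p = 9.45e-06). All 5 members were thus called in spleen, 2 higher and 3 lower, in a comparison in which 54.7% of all tested genes were called.

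In thymic γδ T cells the same 3 genes were lower by less. Trdv1 was at 5.62 and 5.48 CPM in WT and at 1.06 and 0.463 CPM in KO. Trdv2-2 was at 11.3 and 9.08 CPM against 3.57 and 2.31 CPM. Trdv5 was at 18.7 and 16.8 CPM against 4.79 and 3.79 CPM. No labelled genotypes overlapped here either, and the share of all genes without overlap was again not counted. Trdv1 fell by 2.75 on the log2 scale (SE 0.41, edgeR adjusted p = 0.000369), Trdv5 fell by 1.93 (SE 0.17, adjusted p = 1.62e-05) and Trdv2-2 fell by 1.68 (SE 0.23, adjusted p = 0.000213). All 5 members were called in thymic γδ T cells too, where 49.7% of all tested genes were called.

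In the DN sort Trdv4 was the only member called, where 23% of all tested genes were called. With the pool as a replicate block 2 members were called, Trdc being the second, where 4279 genes in all were called against 3427. Trdv1 was at 0.583 and 0.578 CPM in WT and 0.386 and 0.213 CPM in KO. Trdv2-2 was at 0.841 and 0.754 CPM against 0.364 and 0.587 CPM, and Trdv5 at 1.34 and 1.25 CPM against 0.879 and 1.07 CPM. These 3 genes held 12 to 83 UMIs per DN library, with differences of −0.98 (SE 0.50, edgeR adjusted p = 0.191) for Trdv1, −0.72 (SE 0.30, adjusted p = 0.114) for Trdv2-2 and −0.40 (SE 0.20, adjusted p = 0.179) for Trdv5. Without DN KO library 2, Trdc (−0.73, edgeR adjusted p = 0.0013) and Trdv2-2 (−1.22, adjusted p = 0.0258) were called besides Trdv4, whereas without DN KO library 1 they were at −0.22 (adjusted p = 0.324) and −0.40 (adjusted p = 0.507). Trdv5 ran from −0.65 without DN KO library 2 to −0.24 without DN KO library 1.

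**Figure D2:**
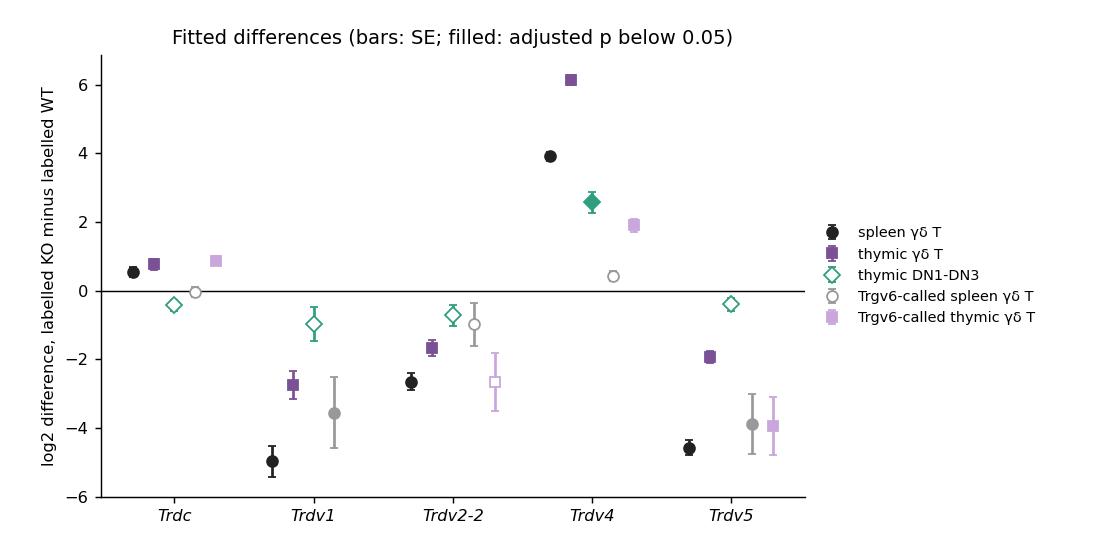
Log2 difference, labelled KO minus labelled WT, of each member in spleen, thymic γδ T cells, the DN sort and the Trgv6-called cells of both γδ sorts, with bars of 1 SE from edgeR and filled points where the adjusted p is below 0.05. Trdv4 stands at 3.92, 6.14 and 2.57 in the 3 sorts, while Trdv1, Trdv2-2 and Trdv5 stand below 0 at every point.

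The effects in spleen and thymus were compared by an interaction term, in which 29.6% of all tested genes were called. For Trdv4 the spleen effect was smaller than the thymic one by 2.22 on the log2 scale (SE 0.17, edgeR adjusted p = 3.28e-05), which goes with the WT levels of 36.1 and 38.1 CPM in splenic cells and of 6.67 and 6.79 CPM in thymic cells. Trdv5 fell further in spleen than in thymus, with a difference of −2.64 (SE 0.26, adjusted p = 0.000115). Trdv1 (−2.21, SE 0.61, edgeR adjusted p = 0.0219) and Trdv2-2 (−0.98, SE 0.33, adjusted p = 0.0469) passed the threshold as well, but neither call outlasted leaving out spleen WT library 1 (adjusted p = 0.0532 and 0.0949). On leaving out a library the value for Trdv1 ranged from −3.60 (without spleen KO library 2) to −1.55 (without thymic KO library 1). Its call was also lost without thymic WT library 1 (0.0632), thymic KO library 1 (0.117) or thymic WT library 2 (0.0666), and that of Trdv2-2 without any of the other 7 libraries except thymic KO library 2 (0.0618 to 0.171). The Trdc effects differed by −0.23 (SE 0.22, adjusted p = 0.466).

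To see which receptor a cell carried, a cell was given a Trdv call for the member with most of its Trdv UMIs, and no call on a tie. In spleen 22.4% and 21.0% of cells labelled WT and 86.3% and 86.1% of cells labelled KO received a call. For thymic γδ T cells it was 24.5% and 23.8% against 64.7% and 75.7%. Shares of calls are not shares of cells, since segments differ in capture and most WT cells had no call. Trav genes usable by the delta chain were not among the genes called. Of these, Trav13-4-dv7 had a UMI in 6.30% and 6.41% of splenic WT cells and in 0.384% and 0.728% of splenic KO cells. Only 77 to 153 cells per γδ library held UMIs of 2 or more Trdv genes.

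Splenic WT cells used all 4 segments, and Trdv4 took nearly all calls of splenic KO cells. Of the calls in the spleen libraries labelled WT, Trdv4 made 32.6% (570 of 1748) and 33.7% (790 of 2347), and in those labelled KO 99.5% (6713 of 6746) and 99.8% (10036 of 10056). In the WT libraries Trdv5 made 29.2% and 26.3%, Trdv2-2 21.8% and 23.2% and Trdv1 16.4% and 16.8%. In the KO libraries these 3 genes led in 33 of 6746 and 20 of 10056 called cells. The difference in the Trdv4 share was 66.5 percentage points (WT 33.1 ± 0.743%, KO 99.7 ± 0.205%, SD, n = 2), with an exact permutation p of 0.333, the smallest this design allows. Counting only cells with at least 2 UMIs of the leading gene, the difference was 39.1 points.

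Calls of thymic WT γδ T cells were led by Trdv5 and those of KO cells by Trdv4. Trdv5 made 45.2% and 45.7% of the WT calls, Trdv2-2 30.3% and 27.3%, Trdv1 12.8% and 13.0% and Trdv4 11.8% and 14.1%. In the KO libraries Trdv4 made 94.3% and 96.9% of the calls, Trdv5 3.05% and 1.99%, Trdv2-2 2.12% and 0.901% and Trdv1 0.546% and 0.191%. The Trdv4 share differed by 82.7 points (WT 12.9 ± 1.63%, KO 95.6 ± 1.86%, SD, n = 2), again with an exact permutation p of 0.333. The DN sort gave few calls, with Trdv4 in 5 of 163 and 8 of 160 called WT cells and in 17 of 86 and 11 of 109 called KO cells.

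**Figure D3:**
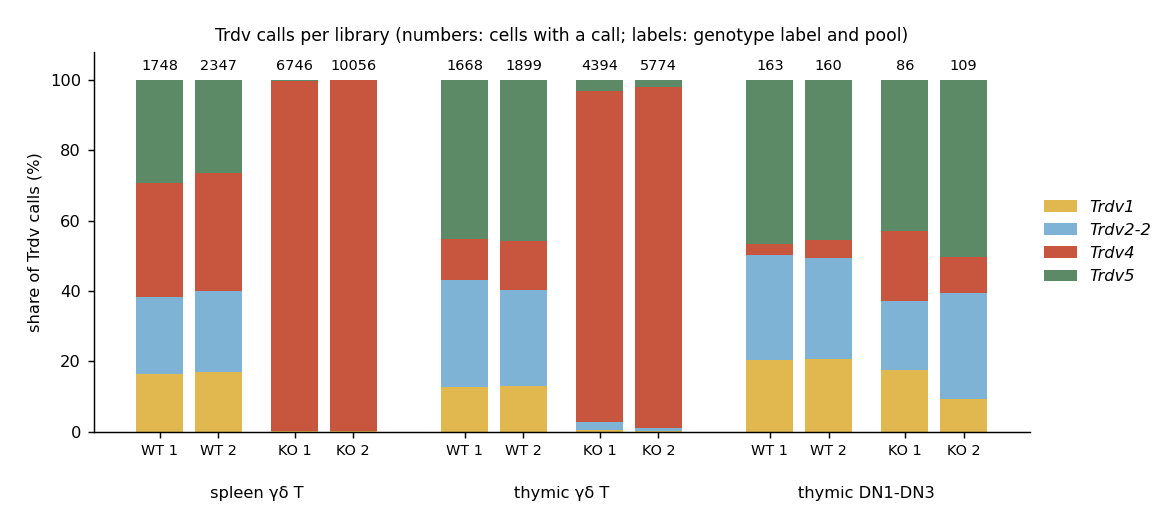
Share of Trdv calls (percent) taken by each of the 4 variable genes, as stacked bars for the 12 libraries by sort, labelled genotype and pool, with the number of called cells above each bar. Trdv4 fills 99.5% and 99.8% of the splenic KO bars and 32.6% and 33.7% of the splenic WT bars.

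Each cell was likewise given a Trgv call for the leading gene among Trgv1 to Trgv7. How alike these genes are in sequence was not measured, and single calls are uncertain. WT cells with a delta segment other than Trdv4 mostly had a Trgv2 call, which was also the most frequent call over all splenic WT cells. There Trgv2 led in 3148 and 4939 cells and Trgv1, the next, in 674 and 1059. A frequent Trgv2 partner therefore does not set these 3 segments apart. Of the WT cells with both calls, Trgv2 was the partner of Trdv5 in 79.0% and 78.1% in spleen and 80.3% and 81.8% in thymus. For Trdv2-2 it was the partner in 68.5% and 76.5% in spleen and 77.6% and 79.9% in thymus. For Trdv1 the shares were 72.1% and 71.1% and 68.4% and 72.5%. Trgv6 was the partner of any of these 3 segments in at most 1.09% of the cells with both calls in a γδ library labelled WT.

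In γδ libraries labelled WT a Trgv6 call was more frequent beside Trdv4 than beside the other segments. In spleen Trgv6 was the partner in 36.9% (138 of 374) and 26.9% (140 of 521) of Trdv4-called cells labelled WT and in 67.6% and 58.8% of those labelled KO. Of thymic cells it was the partner in 8.78% (13 of 148) and 11.1% (21 of 190) of WT and 63.6% and 62.8% of KO Trdv4-called cells. Trgv2 was the more frequent partner of Trdv4 in WT cells, in 50.3% and 59.9% in spleen and 70.3% and 68.9% in thymus. In thymic WT cells only 25.5% and 25.1% of Trdv4 calls rested on 2 or more UMIs. There 2 or more Trdv4 UMIs were held by 0.649% and 0.576% of the 3699 and 4337 Trgv2-called cells and by 26.8% and 29.8% of the 41 and 57 Trgv6-called cells, and the part of free RNA in the pairs with a single UMI was not tested.

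Read from the gamma side, Trgv6-called cells that also had a Trdv call mostly had Trdv4 in either genotype. In spleen Trdv4 led in 138 of 143 (96.5%) and 140 of 149 (94.0%) Trgv6-called WT cells with a Trdv call, and in 3088 of 3092 and 4121 of 4126 KO cells (both 99.9%). In thymus it led in 13 of 18 (72.2%) and 21 of 27 (77.8%) such WT cells and in 1848 of 1850 (99.9%) and 2402 of 2406 (99.8%) KO cells. Most Trgv6-called thymic WT cells had no Trdv call and are not in these shares. The small WT counts leave these thymic shares imprecise. The labelled genotypes differed by 4.64 points in spleen and 24.9 points in thymus, each with an exact permutation p of 0.333. With at least 2 UMIs of the leading gene the difference was 0.412 points in spleen and 4.17 points in thymus.

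Among cells with another Trgv call the genotypes lay further apart. There Trdv4 led in 24.1% and 28.1% of called splenic WT cells and in 98.9% and 99.7% of splenic KO cells. In thymus it led in 10.4% and 11.7% of WT cells and in 85.0% and 91.7% of KO cells. In spleen, Trgv2-called cells had Trdv4 in 188 of 742 and 312 of 1058 WT cells and in 1113 of 1125 and 2398 of 2406 KO cells. Trgv1-called splenic cells had it in 25 of 153 and 42 of 204 WT cells and in 143 of 146 and 219 of 219 KO cells. Trgv4-called splenic cells had it in 10 of 56 and 11 of 55 WT cells and in 43 of 43 and 58 of 59 KO cells. In spleen the high Trdv4 share of KO cells was thus seen in each of these classes of calls and not only in cells with a Trgv6 call. Whether such a call names the gamma chain that the cell carries was not tested. In thymus Trgv4-called cells had Trdv4 in 10.3% and 11.2% of WT and in 69.0% and 78.9% of KO calls, and Trgv1-called cells in 12% and 14.7% against 80.2% and 96.3%. Trgv5-called cells, whose fetal receptor also uses Trdv4, had it in 12 of 12 and 13 of 14 splenic WT cells and in 170 of 171 and 204 of 204 splenic KO cells.

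Within a library the Trdv4 share was higher in Trgv6-called than in other Trgv-called cells in 8 of 8 γδ libraries. The gap was 69.1 ± 4.64 points in splenic WT and 0.564 ± 0.53 points in splenic KO libraries (SD, n = 2), and 64.0 ± 2.98 against 11.5 ± 4.74 points in thymus. Over the 4 libraries of a tissue the mean gap was 34.8 points in spleen and 37.7 points in thymus, each with an exact sign-flip permutation p of 0.13, the smallest that 4 values allow, and 0.375 after adjustment. Without WT library 1 the spleen mean gap was 22.3 points.

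**Figure D4:**
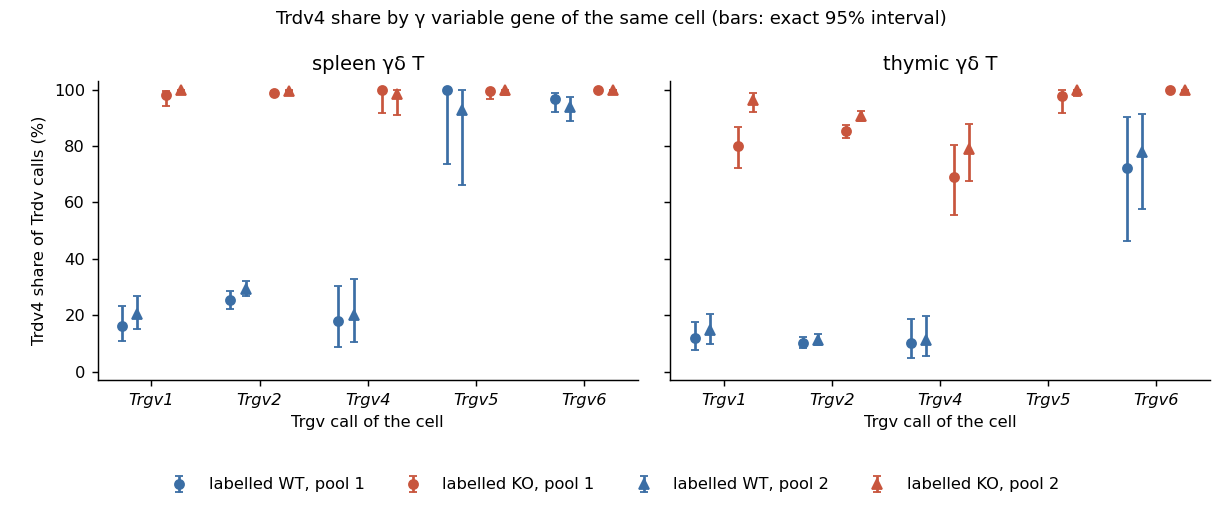
Share of Trdv calls that are Trdv4 (percent) by the Trgv call of the same cell in the libraries of splenic and thymic γδ T cells, with exact 95% binomial intervals, which cover counting error only, for classes of at least 10 calls. Trgv6-called splenic WT cells lie at 96.5% and 94.0% and Trgv2-called ones at 25.3% and 29.5%, while the lowest splenic KO point lies at 97.95%.

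Summing counts over Trgv6-called cells only asks whether the level of a member differed within cells of that gamma segment. In spleen 2 members were called, where 12% of the 11500 tested genes were called. Trdv5 fell by 3.9 on the log2 scale (SE 0.87, edgeR adjusted p = 0.0118) and Trdv1 by 3.55 (SE 1.03, adjusted p = 0.0424). Both rest on few molecules, with a Trdv5 UMI in 1.06% and 2.18% of the 188 and 229 WT cells and in 0.0877% and 0.13% of the 3422 and 4613 KO cells. Neither passed the low-count filter once any of the 4 libraries was left out. Whether they passed it through the small WT sums alone was not recorded, so neither call is read as a difference within Trgv6 cells. Trdv4 differed by 0.43 (SE 0.13, adjusted p = 0.0555) and passed with the pool as a replicate block (0.43, adjusted p = 0.0266). Over the 10 settings its value ran from 0.346 to 0.527, called in some and not in others. A Trdv4 UMI was seen in 73.4% and 61.6% of these WT cells and in 90.4% and 89.7% of the KO cells. Trdc differed by −0.04 (SE 0.14, adjusted p = 0.912), and Trdv2-2 by −0.98 (SE 0.63, adjusted p = 0.384), a value that turned to 0.02 without WT library 2.

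In Trgv6-called thymic cells 3 members were called, where 15.9% of the 10990 tested genes were called. Trdv4 rose by 1.90 on the log2 scale (SE 0.19, edgeR adjusted p = 3.01e-05), with a Trdv4 UMI in 31.7% and 36.8% of the 41 and 57 WT cells and in 91.2% and 89.3% of the 2028 and 2691 KO cells. Trdc rose by 0.87 (SE 0.13, adjusted p = 0.000642). Trdv5 fell by 3.95 (SE 0.85, adjusted p = 0.00633), a call lost without WT library 1 (0.106) or WT library 2 (0.0769), and on leaving out either KO library it did not pass the filter. Trdv5 was the Trdv call of only 1 and 3 of these WT cells and of 2 and 3 of these KO cells. The limit given for the spleen calls holds for this Trdv5 call too, and it is not read as a difference. Trdv2-2 differed by −2.67 (SE 0.85, adjusted p = 0.0507), which DESeq2 called (−2.71, adjusted p = 0.0133), and Trdv1 did not pass the filter.

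Within both γδ sorts, markers of IL-17-type γδ T cells were higher in the libraries with more Trdv4. The summed level of the 6 type 17 markers Maf, Blk, Scart1, Cxcr6, Il23r and Il17a was 695 to 698 CPM in splenic WT and 7328 to 7805 CPM in splenic KO libraries, and 713 to 830.3 against 5482 to 6389 CPM in thymic γδ T cells. In the DN sort it was 100.5 to 102 CPM in WT and 727 to 1291 CPM in KO. The order of the sorts was not that of Trdv4, since the DN KO sums lay above the splenic WT ones while Trdv4 was at 0.498 to 0.793 against 36.1 to 38.1 CPM, and thymic WT libraries had sums like those of splenic WT libraries with Trdv4 at 6.67 to 6.79 CPM. These like sums came from different genes. Maf (339 and 261 against 120 and 98.7 CPM) and Blk were higher in thymic than in splenic WT libraries. Scart1, Cxcr6 (45.8 and 49.6 against 174.9 and 174.9 CPM) and Il23r were lower. The summed level of the 7 type 1 markers Cd27, Il2rb, Tbx21, Eomes, Cd160, Klrd1 and Ly6c2 went the other way in spleen, at 1456 to 1589 against 199.9 to 237 CPM, with all 7 genes lower in both KO libraries. In thymus the sum was 488 to 532 against 234 to 323 CPM, with Cd27 (352 and 317 against 115 and 72.1 CPM), Cd160 and Eomes lower in both KO libraries, Il2rb (100.3 and 96.9 against 123 and 125 CPM), Tbx21 and Ly6c2 higher in both, and Klrd1 on either side. For DN libraries it was higher in KO, like the type 17 sum, at 144 to 149.6 against 349 to 381 CPM. The part of these cell states in the Trdv levels was not tested, but the levels can be given within cells that met a marker rule of at least 3 UMIs from at least 2 genes of 1 list and not of the other.

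In splenic type 17 marker cells (899 and 973 WT, 6991 and 10663 KO cells) Trdv4 was at 263 and 287 CPM in WT and 541 and 526 CPM in KO. A Trdv4 UMI was seen in 43.5% and 41.0% of these WT cells and in 87.2% and 86.7% of these KO cells. In splenic type 1 marker cells Trdv4 was at 4.42 and 7.13 CPM in WT and 1.63 and 4.68 CPM in KO, where 83 and 66 cells met the rule. The labelled genotypes overlapped in that class, in which the KO values rest on 1 and 2 UMIs. In thymic type 1 marker cells Trdv4 was at 3.03 and 3.89 CPM in WT and 13.0 and 5.68 CPM in KO. These did not overlap, with 27 and 7 UMIs in the 267 and 157 KO cells. Thymic type 17 marker cells held Trdv4 at 12.6 and 12.9 CPM in WT (2588 and 2766 cells) and at 541 and 519 CPM in KO (5180 and 6640 cells). Thymic WT cells that met the type 17 rule thus had little Trdv4, and the genotypes lay apart within the class. Over whole thymic libraries Scart1 was at 163 and 156 CPM in WT against 2254 and 2543 CPM in KO. Maf was at 339 and 261 against 788 and 896 CPM. Whether the rule picked the same kinds of cells in both genotypes was not tested.

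Splitting the type 17 marker cells by their Trgv call, a split made after the values above were seen, gave Trdv4 in 123 of 123 and 112 of 112 Trdv calls of splenic WT cells with Trgv6, at 508 and 569 CPM. The splenic KO cells of that kind had it in 2769 of 2771 and 3791 of 3796 calls, at 573 and 557 CPM, and so overlapped with WT in level. Type 17 marker cells with another Trgv call had Trdv4 in 79.3% and 75.1% of splenic WT calls. In thymus the latter had it in 63 of 584 and 72 of 585 WT calls and in 91.3% and 95.3% of KO calls. Thymic WT type 17 marker cells with Trgv6 had Trdv4 in 13 of 16 and 20 of 20 calls, at 425 and 244 CPM, against 726 and 593 CPM in KO.

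From the side of the delta segment, 68.6% and 50% of splenic WT cells with a Trdv4 call were type 17 marker cells, against 90.6% and 91.8% in KO. Of splenic WT cells called Trdv1, 0.699% and 3.04% were type 17 marker cells and 75.5% and 71.1% were type 1 marker cells. Trdv2-2-called cells (4.46% and 5.14% type 17, 61.1% and 59.6% type 1) and Trdv5-called cells (7.63% and 6.16% type 17, 59.3% and 61.4% type 1) were alike in this to the WT cells with no call, at 7.47% and 5.70% type 17. In thymus the WT segments lay closer together, with 51.0% and 47.6% type 17 marker cells among Trdv4 calls, 50.5% and 44.4% among Trdv2-2 calls, 44.6% and 41.1% among Trdv5 calls and 30.5% and 26.0% among Trdv1 calls. In thymic KO cells 92.2% and 95.1% of Trdv4 calls were type 17 marker cells.

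The Trdc level was set beside the Trdv call of the cell. In spleen it was at 1749 and 1911 CPM in Trdv4-called WT cells and 1879 and 2100 CPM in Trdv4-called KO cells, which overlap. Splenic cells with no Trdv call had Trdc at 1285 and 1431 CPM in WT and 1360 and 1639 CPM in KO. In thymus Trdv4-called cells had Trdc at 1458 and 1417 CPM in WT and 2397 and 2280 CPM in KO, whereas cells with no call were at 1246 and 1193 against 1223 and 1253 CPM. The genotypes overlapped among thymic cells with no call and not among those with a Trdv4 call. Among thymic WT cells, those with a Trdv1 call overlapped the Trdv4-called ones in Trdc (1533 and 1392 CPM), while those with a Trdv2-2 call (1394 and 1364 CPM) or a Trdv5 call (1336 and 1296 CPM) lay below them.

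**Figure D5:**
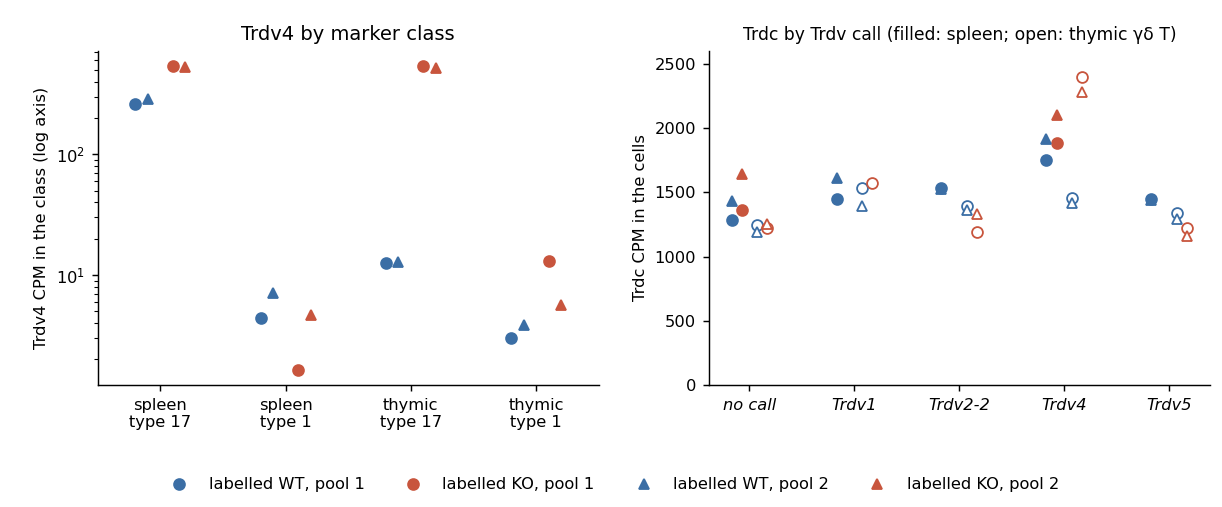
Left, Trdv4 level in CPM (log axis) in type 17 and type 1 marker cells of each γδ library; right, Trdc level in CPM by the Trdv call of the cells (spleen filled, thymus open), for classes of at least 20 cells. Splenic type 17 marker cells lie at 263 and 287 CPM of Trdv4 in WT and 541 and 526 CPM in KO, and Trdc is highest in Trdv4-called thymic KO cells, at 2397 and 2280 CPM.

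In the DN sort the delta genes were read within the marker gates of the precursor stages. Ptcra-Il2ra cells, which hold RNA of the pre-TCR alpha chain and the IL-2 receptor alpha chain as DN3 cells do, numbered 1477 and 1753 in WT and 945 and 2057 in KO. Their Trdc level was 170.2 and 165 CPM in WT and 142 and 157 CPM in KO, a narrower gap than in the whole sort. A Trdc UMI was seen in 59.0% and 54.9% of these WT cells and in 52.1% and 53.1% of the KO cells. Their 42 and 40 Trdv calls in WT and 20 and 38 in KO were led by Trdv5 (22 and 22 in WT, 11 and 22 in KO), with Trdv4 in 0 and 3 WT and 3 and 0 KO cells. Il2rb cells without Ptcra, which numbered 119 and 115 in WT and 878 and 473 in KO, held Trdc at 27.0 and 84.6 CPM in WT and 25.0 and 38.3 CPM in KO. Trac, the alpha constant gene, rose in the DN sort by 2.45 on the log2 scale (SE 0.32, edgeR adjusted p = 0.000657). The part of the Il2rb cells in the lower DN level of Trdc was not tested.

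The 28 Trdv4-called KO cells of the DN sort were in the main type 17 marker cells, 14 of 17 in the first library and 10 of 11 in the second. The type 17 share of KO cells with no Trdv call was 43.4% and 33.0%. Of the Trdv4-called WT cells, 1 of 5 and 1 of 8 were type 17 marker cells. At least 2 Trdv4 UMIs were held by 9 of 17 and 6 of 11 of the KO cells and by none of the 5 and 8 WT cells. The Trdv4-called KO cells held Trdc at 460 and 1607 CPM, against 122 and 161 CPM in KO cells with no Trdv call. Whether they were γδ T cells within the DN sort was not tested.

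Thymic γδ T cells and the DN sort were then compared within a labelled genotype. The γδ sort selected γδ T cells, so a higher level of delta genes there was set in advance by the sorting. The differences below therefore give sizes only. In WT all 5 members were higher in γδ T cells, where 47.2% of all tested genes were called. Trdv4 rose by 5.99 on the log2 scale (SE 0.22, edgeR adjusted p = 2.09e-07), Trdv5 by 3.79 (SE 0.19, adjusted p = 7.91e-07), Trdv2-2 by 3.69 (SE 0.26, adjusted p = 4.04e-06) and Trdv1 by 3.27 (SE 0.41, adjusted p = 0.000156). Trdc rose by 2.71 (SE 0.16, adjusted p = 1.86e-06). In KO all 5 were higher as well, where 57.3% of all tested genes were called. Trdv4 rose by 9.56 (SE 0.19, adjusted p = 2.41e-09) and Trdc by 3.9 (SE 0.17, adjusted p = 5.19e-07). Trdv2-2 rose by 2.73 (SE 0.28, adjusted p = 3.77e-05) and Trdv5 by 2.27 (SE 0.20, adjusted p = 1.4e-05). Trdv1 rose by 1.5 (SE 0.51, adjusted p = 0.0279), which did not pass with the pool as a replicate block (1.47, adjusted p = 0.0535), without DN KO library 2 (adjusted p = 0.16) or without thymic KO library 1 (0.84, adjusted p = 0.256).

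Of the 6 other Trd genes 3 were tested, of which 2 fell in spleen and 1 in thymic γδ T cells, beside 54.7% and 49.7% of all tested genes called. Trdj1, the joining segment nearest to the diversity segments, was at 93.0 and 86.2 CPM in splenic WT and 22.5 and 20.3 CPM in splenic KO cells, and fell by 1.97 on the log2 scale (SE 0.17, edgeR adjusted p = 6.37e-06). In thymic γδ T cells it was at 73.4 and 63.1 against 30.9 and 29.6 CPM and fell by 1.05 (SE 0.16, adjusted p = 0.000444). Trdj2, the next joining segment, differed by 0.37 (adjusted p = 0.0804) in spleen and 0.39 (adjusted p = 0.0763) in thymus by edgeR.

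Of the 10 Trav genes whose names mark them as usable by the delta chain, 7 were tested. All 7 fell in spleen, where 54.7% of all tested genes were called, with a median of −4.71 against 0.003 over all tested genes. In thymic γδ T cells 5 fell and 2 were not called (49.7% of all tested genes called), with a median of −2.21, and in the DN sort none was called (23% of all tested genes called, median −0.52). Trav13-4-dv7 was at 14.7 and 14.8 CPM in splenic WT and at 0.662 and 1.45 CPM in splenic KO cells, and fell by 3.68 (SE 0.34, edgeR adjusted p = 1.04e-05). Trav15-2-dv6-2 fell by 4.71 in spleen (SE 0.47, adjusted p = 1.98e-05) and by 2.50 in the thymus (SE 0.41, adjusted p = 0.000663).

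Of the 13 other receptor genes, 4 rose, 5 fell and 4 were not called in spleen, and 4, 7 and 2 in thymic γδ T cells, where 54.7% and 49.7% of all tested genes were called. Among those called, the largest spleen differences were those of Trat1, an adaptor bound to the receptor complex (−5.12, edgeR adjusted p = 1.03e-07), the gamma constant genes Trgc3 (−3.14, adjusted p = 8e-06) and Trgc1 (2.40, adjusted p = 9.23e-08) and the CD3 zeta gene Cd247 (0.96, adjusted p = 3.51e-05). Ptcra differed by −2.68 and was not called (edgeR adjusted p = 0.0907). In thymic γδ T cells Trat1 (−2.0), Trgc3 (−1.71), Trgc1 (1.47) and Ptcra (−1.43) led. In the DN sort, with 23% of all tested genes called, 2 of them rose, 5 fell and 6 were not called, and there Trgc3 (−1.58), Trgc4 (−0.89) and Trat1 (−0.62) fell. The receptor genes thus moved in both directions, with medians of −0.46, −0.53 and −0.09 in the 3 sorts.

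Over the 12 libraries the genes whose log2 CPM was most like that of a member were named among 6728 genes whose mean reached 20 CPM, as a description over libraries that share sorts and genotypes. For Trdv4 they were Zfp462 and Rassf5 (both r = 0.991), followed by Tns4, Ptpn1 and Sat1 (each 0.989). For Trdv2-2 they were Trdj1 (0.991), Pecam1 (0.967), Cox7a2l (0.949), Vgll4 (0.948) and Trgv1 (0.947). Trdv1 was most like Ptpn12 (0.976), Chd3 (0.964), Ppm1b (0.957), Zfp281 (0.949) and Dcaf6 (0.946), and Trdv5 was most like Chd3 (0.968), Rnf2 (0.962), Pde7a (0.961), Vav1 (0.959) and Ube2h (0.957). For Trdc they were Dad1 (0.971), which is the first gene past Trac on chromosome 14, Auts2 (0.959), Gnpnat1 and Zfp68 (both 0.957) and Mdp1 (0.955). Among the members themselves r was 0.924 for Trdv1 and Trdv5, 0.895 for Trdv2-2 and Trdv5 and 0.915 for Trdc and Trdv4, against 0.056 for Trdv1 and Trdv4 and 0.154 for Trdv4 and Trdv5.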

How the data were processed

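Single-cell RNA sequencing libraries had been made with the 10x 3′ chemistry. The deposited matrices hold UMI counts per gene and cell, which the authors made per the labels with Cell Ranger 8.0.1 on build GRCm39 and split into WT and KO by hashtag. Groups were taken from the hashtag labels. Of 97404 barcodes 96911 were kept, which had 500 UMIs or more from 200 genes or more and a mitochondrial share of up to 20%. No doublet caller was run; the authors had assigned droplets to a hashtag with hashsolo, and droplets with cells of the same hashtag were not looked for. Counts were summed per library, and CPM uses the UMIs of all genes as the total. Ribosomal, Gm-numbered and mitochondrial genes (9538) were left out of the tests. The test was edgeR 4.0.16 (quasi-likelihood, TMM, default low-count filter, limma 3.58.1, R 4.3.3) over all 12 libraries with Benjamini-Hochberg adjustment over all tested genes at 0.05, or over the 4 libraries of a tissue for Trgv6-called cells. The study's test over single cells was not used, since cells are not replicates. Shares were compared by exact two-sided permutation of library values (Python 3.11.15, scipy 1.17.1). The limit allowed by a count of 0 is 3 counts of the total and covers counting error only, as do the counts behind shares.

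The members, gene lists and tests were chosen with earlier results of these data known. A gene of the type 17 marker list and a gene of the B cell marker list are not reported here and were left out of the marker sums and marker rules. Named besides the members are up to 4 genes of the other Trd and Trav list (highest mean CPM), up to 4 of a receptor list (largest differences among those called), the 5 genes most correlated with each member, and Trgv1 to Trgv7. Libraries of a pool shared a droplet run, and the deviations of same-pool libraries from their group means correlated at 0.29 in spleen, 0.176 in the DN sort and 0.063 in thymic γδ T cells. Alternatives were RLE scaling, DESeq2 1.42.0, no filter, the pool as a replicate block, fits of only a comparison's libraries, all genes kept, leaving out each library, calls of at least 2 UMIs, cells with 2 or more Trdv genes left out, and cells thinned to 3000 UMIs with shallower cells left out. The scripts were tested on simulated data.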

Additional observations from a re-analysis of the deposited data

Results flagged for a closer look

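The KO minus WT difference of 4 of the 5 delta genes differed between splenic and thymic γδ T cells by the test of the difference itself (the interaction term of the edgeR fit), where 29.6% of all tested genes were called. On the log2 scale the spleen effect minus the thymic effect was −2.22 for Trdv4, −2.64 for Trdv5, −2.21 for Trdv1 and −0.98 for Trdv2-2. The value for Trdv4 is a smaller rise in spleen (3.92 against 6.14), and the values for the other 3 are larger falls in spleen. The calls of Trdv1 and Trdv2-2 were lost on leaving out any of several libraries, with edgeR adjusted p up to 0.117 and 0.171. The spleen and thymus libraries also differed in Xist RNA, as given above, and tissue and mouse cannot be told apart.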

How the results depend on the processing

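The 5 members were called in spleen and thymic γδ T cells and between thymic γδ T cells and the DN sort in WT under every alternative, except that 4 were called in spleen without a library (Trdc being lost). In the DN sort 2 members were called by DESeq2 and 2 with the replicate block, and 1 to 3 on leaving out a library, the highest without KO library 2. For the spleen minus thymus effect 2 to 4 were called on leaving out a library, and 2 without spleen WT library 1 or any thymic library but KO library 2. In Trgv6-called spleen cells 0 to 1 were called on leaving out a library, since Trdv1 and Trdv5 then failed the filter, and the log2 difference of Trdv2-2 there ranged from −1.47 to 0.019, positive without WT library 2. In Trgv6-called thymic cells 4 members were called by DESeq2 or with no filter, where 1629 and 2330 genes in all were called, against 1747 in the main fit. Fewer members than in the main fit were called on leaving out any library. The thymic difference in the share of cells with Trdc was −0.0864 to 0.945 points on leaving out a library, negative without WT library 1, and 4.30 points with cells thinned to 3000 UMIs. The replicate block changed no other call of a member than those given beside the results, and of the values for single members 356 kept their side of the threshold, 9 passed it newly, 21 no longer passed it and 1 turned in sign. The cause of these changes was not tested. The DN values of Trdv1, Trdv2-2 and Trdv5 rest on 12 to 83 UMIs per library, and the WT Trgv6-called thymic values on 41 and 57 cells.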

Other observations

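Cells with UMIs of more than 1 delta segment were counted, a description with no test. Of the splenic cells labelled WT with a Trdv2-2 UMI, 15 of 438 (3.42%) and 34 of 634 (5.36%) also held Trdv4, against 75 of 86 (87.2%) and 99 of 109 (90.8%) of those labelled KO. In thymic KO cells 47 of 143 and 46 of 101 Trdv2-2 cells held Trdv4. For Trdv5 in splenic KO cells it was 10 of 28 and 23 of 35, and for Trdv1 it was 1 of 5 and 22 of 24. These shares stand beside the 86.1% and 86.3% of all splenic KO cells with a Trdv4 UMI, and the part of free RNA and of droplets with more than 1 cell was not tested. A Trdv4 call rested on at least 2 UMIs in 62.3% and 54.2% of splenic WT and 79.6% and 79.2% of splenic KO called cells, and in 25.5% and 25.1% of thymic WT and 82.9% and 80.0% of thymic KO called cells.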
